A study of Mus musculus with 7 samples.

Results

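Membrane fusion in insulin secretion runs on a small protein machine, and 9 of its genes are described here in Beta-TC6, a mouse beta-cell tumour line that secretes insulin. The genes are Snap25, Vamp2, Vamp8, Stxbp5l, Unc13a, Cplx2, Cadps, Nsf and Napa, taken by symbol from a table of raw read counts with 23329 gene symbols. All 9 were found. Wild-type cells given the inflammatory cytokine IL1B (interleukin-1 beta; 3 libraries) were set against wild-type cells given vehicle (4 libraries). All cells, vehicle included, were synchronised by forskolin, an activator of cAMP synthesis, at 10 µM for 1 h, and were kept in DMEM containing 15% serum. How much IL1B was given, for how long, and when cells were harvested is unstated in the sources used here. The comparison asks which fusion transcripts differed with IL1B.

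SNARE proteins on a granule and on the cell membrane zip into a helical bundle that pulls both membranes together. In beta cells the granule protein VAMP2 pairs with SNAP25 and a syntaxin. Munc13 and CAPS proteins prime docked granules for release, complexin binds the assembled bundle and gates fusion by calcium, and tomosyn competes with VAMP2 for its partners. After fusion the ATPase NSF and its adaptor alpha-SNAP, encoded by Napa, take the spent bundles apart.

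Total depth was 6007723 to 6969745 counts per library with IL1B and 5335607 to 7513934 with vehicle. The cells expressed 13 of 14 beta-cell markers above the low-count filter, with Ins2 at 22372 CPM in IL1B libraries and 21183 CPM in vehicle libraries (counts per 1e6 in tested genes, after TMM scaling between libraries); 4 of the 13 fell with IL1B, Pdx1, Mafa, Nkx2-2 and Neurod1, all transcription factors of beta cells, beside the 3.25% of all tested genes that fell. The alpha-cell hormone gene Gcg and the delta-cell hormone gene Sst were also present, at 267 and 293 CPM with IL1B and 311 and 288 CPM with vehicle. Of the 5 tested genes of this other-endocrine list, 1 fell, the alpha-cell factor gene Irx2 (5.16 CPM with IL1B and 9.19 CPM with vehicle; log2 fold change -0.83, edgeR adjusted p = 0.00228). Of 8 leukocyte markers 1 passed the filter, and the list summed to 3.66 to 5.02 counts per 1e6 with IL1B and 3.37 to 4.84 with vehicle. Of 8 stromal and endothelial markers 2 passed, and of 8 exocrine and duct markers 3. The acinar markers Cpa1, Prss2 and Amy2a5 had no count in any of the 7 libraries, which allows up to 0.0683 counts per 1e6 over all of them. Of 8 neuron and glia markers 5 passed the filter and 1, the tubulin gene Tubb3, rose (152 CPM with IL1B and 113 CPM with vehicle); the neuronal genes Slc17a7 and Gad1 had 10 and 7 counts in all IL1B libraries and 12 and 3 in all vehicle libraries. Pairs of libraries within a group that included the second IL1B or the second vehicle library differed more (chi-square per degree of freedom 2.79 to 4.68) than the others (1.51 to 1.71). In the second vehicle library longer transcripts tended to lie below the group mean (Spearman rho -0.56 between length and deviation, over 12340 genes), against 0.22 to 0.31 in the other vehicle libraries and -0.02 to 0.02 in the IL1B libraries. Each deviation is from its own group's mean, so a strong trend in 1 library shifts the other libraries of that group the opposite way.

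None of the 9 genes passed the threshold with IL1B. The edgeR quasi-likelihood test, with an adjusted p below 0.05 as the threshold, called 0 of the 9, against 11.0% of the 12480 genes tested (7.76% higher and 3.25% lower with IL1B). DESeq2 and limma-voom also called 0, against 7.71% and 10.8% of the genes they tested. At an unadjusted edgeR p under 0.05 there were 2, Cplx2 and Nsf, both lower with IL1B, against 22.6% of all tested genes with such a p and 9.62% with such a p and a lower value. IL1B and vehicle values overlapped in all 9 genes, whereas they did not overlap in 21.0% of all tested genes. The 9 log2 fold changes (IL1B over vehicle) ran from -0.18 to 0.13, with 6 below and 3 above 0 and a median of -0.03, beside -0.01 for all tested genes. Every 95% interval of this fit lay between -0.38 and 0.34, which is a fold change between 0.770 and 1.27. Each interval is for its gene alone and does not bound the 9 together. All 9 passed the low-count filter, with 131 to 1453 counts in every library, so the counting error of a single value was 2.62% to 8.74%. In a bulk culture, fewer cells expressing a gene and less of its RNA per cell cannot be told apart.

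**Figure D1:**
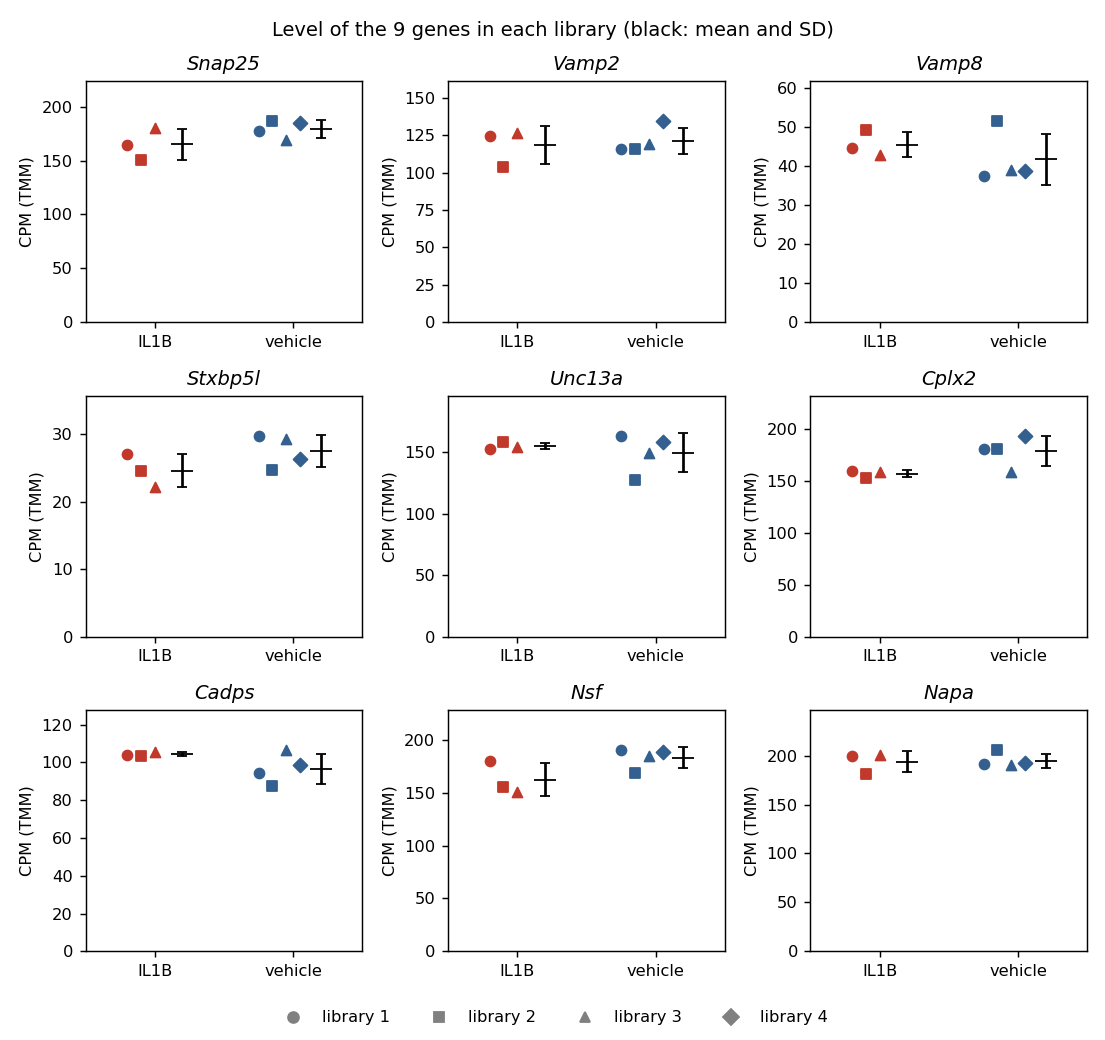
Level of each of the 9 genes in every library, in CPM after TMM scaling, with IL1B (red, 3 libraries) left of vehicle (blue, 4 libraries); the marker shape gives the table's own library number, and black bars give mean and SD. The groups overlap in every panel, and the second vehicle library is highest for Vamp8, at 51.5 CPM, and lowest for Unc13a, at 127 CPM.

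The SNARE genes lay close to their vehicle levels. Snap25 lies on mouse chromosome 2 (136713453 to 136782428, plus strand, GRCm38) and encodes the protein that gives the bundle a pair of its helices. It stood at 165, 151 and 180 CPM in IL1B libraries 1 to 3, against 177, 187, 169 and 185 CPM in vehicle libraries 1 to 4. IL1B libraries 1 and 2 lay below every vehicle library and IL1B library 3 inside their range. Its log2 fold change of -0.12 (95% interval -0.26 to 0.02) did not pass (edgeR adjusted p = 0.311).

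Vamp2 (chromosome 11, 69088490 to 69092384, plus strand), the granule SNARE of regulated secretion, had 125, 104 and 127 CPM with IL1B and 116, 116, 119 and 134 CPM with vehicle. IL1B library 2 was the lowest and vehicle library 4 the highest, and the other 5 libraries lay between 116 and 127 CPM. That put Vamp2 at a log2 fold change of -0.03, with a 95% interval of -0.19 to 0.13 (edgeR adjusted p = 0.867). Vamp8 (chromosome 6, 72385223 to 72390703, minus strand) encodes a related SNARE of endosomes and of some secretory granules. It had 44.6, 49.2 and 42.8 CPM with IL1B and 37.5, 51.5, 39.0 and 38.8 CPM with vehicle. All 3 IL1B libraries lay above vehicle libraries 1, 3 and 4 and below vehicle library 2. Vamp8 had a log2 fold change of 0.13 (95% interval -0.09 to 0.34, edgeR adjusted p = 0.531), and of 0.25 without the second vehicle library (adjusted p = 0.0534).

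Stxbp5l encodes tomosyn-2, a SNARE-binding protein that holds back fusion. It was the least abundant of the 9 genes, with the largest counting error, and is located on chromosome 16 (37114942 to 37384962, minus strand). Its values were 27.1, 24.6 and 22.1 CPM with IL1B and 29.8, 24.7, 29.3 and 26.4 CPM with vehicle. IL1B libraries 2 and 3 lay below all vehicle libraries, library 2 by less than 1 CPM. The fitted log2 fold change was -0.16 (95% interval -0.38 to 0.06, edgeR adjusted p = 0.391).

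For both priming genes every IL1B value lay inside the vehicle range. Unc13a encodes Munc13-1, which opens syntaxin for assembly, and lies on chromosome 8 (71624417 to 71671757, minus strand). It had 153, 158 and 154 CPM with IL1B, against 163, 127, 149 and 158 CPM with vehicle. The IL1B values sat together inside the vehicle range, with a coefficient of variation of 1.79% against 10.6% in vehicle. The counting error of a single library was 2.84% to 3.51%, and the vehicle spread includes the second vehicle library at 127 CPM. A difference in spread was not tested. Its log2 fold change was 0.05 (95% interval -0.10 to 0.21, edgeR adjusted p = 0.754), and -0.02 without the second vehicle library. Of the gene's exonic bases 3.92% overlap exons of Colgalt1 on the opposite strand, and whether strand was used in counting is unstated. Cadps (chromosome 14, 12372563 to 12823079, minus strand) encodes CAPS1, which primes dense-core granules. Its values were 104, 104 and 106 CPM with IL1B and 94.1, 87.2, 106 and 98.8 CPM with vehicle. The IL1B libraries lay above vehicle libraries 1, 2 and 4 and just below vehicle library 3. Cadps had a log2 fold change of 0.11 (95% interval -0.03 to 0.26, edgeR adjusted p = 0.368).

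Cplx2, the main complexin gene of these cells, came nearest to the threshold. It lies on chromosome 13 (54371349 to 54383917, plus strand, GENCODE M21) and had 160, 153 and 159 CPM with IL1B, against 182, 181, 159 and 194 CPM with vehicle. Vehicle library 3 lay among the IL1B values, and the other vehicle libraries lay above all of them. The mean was 157 ± 3.72 CPM with IL1B (SD, n = 3) and 179 ± 14.3 CPM with vehicle (SD, n = 4). Cplx2 had a log2 fold change of -0.18 (95% interval -0.32 to -0.05, edgeR unadjusted p = 0.0122, adjusted p = 0.0896). Cplx2 passed the threshold in 3 of 16 alternative settings. Without vehicle library 3 the log2 fold change was -0.24 (edgeR adjusted p = 0.0297), and with total-count scaling -0.22 (adjusted p = 0.0393). After each library's trend with transcript length and GC content was removed it was -0.23 (adjusted p = 0.0127). With total-count scaling and with the trend removed, the median of all tested genes was -0.04, beside -0.01 with TMM scaling alone. In the settings where Cplx2 did not pass, the adjusted p reached 0.269, without vehicle library 4 (-0.15).

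Of the disassembly genes, the Nsf interval lay below 0 and the Napa interval spanned it. Nsf (chromosome 11, 103821782 to 103954056, minus strand) had 180, 155 and 151 CPM with IL1B and 190, 169, 185 and 189 CPM with vehicle. IL1B libraries 2 and 3 lay below every vehicle library, while IL1B library 1 lay above vehicle library 2. Nsf had a log2 fold change of -0.17 (95% interval -0.32 to -0.03, edgeR unadjusted p = 0.0220, adjusted p = 0.133). Nsf passed the threshold in 4 of 16 alternative settings. It passed without IL1B library 1 (-0.26, edgeR adjusted p = 0.0271) and without vehicle library 2 (-0.21, adjusted p = 0.0312). It also passed without the second library of each group (-0.18, adjusted p = 0.0294) and with the length and GC trend removed (-0.20, adjusted p = 0.0279). Among the settings where Nsf did not pass were those without IL1B library 2 (-0.14, adjusted p = 0.342) and without IL1B library 3 (-0.12, adjusted p = 0.447). With DESeq2 it did not pass either (-0.18, adjusted p = 0.205). Napa (chromosome 7, 16098458 to 16117975, plus strand) had 199, 182 and 201 CPM with IL1B and 191, 205, 190 and 193 CPM with vehicle. IL1B library 2 was the lowest and vehicle library 2 the highest, with the other 5 libraries between 190 and 201 CPM. Its log2 fold change of -0.01 (95% interval -0.13 to 0.12, edgeR adjusted p = 0.967) had the narrowest interval of the 9.

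**Figure D2:**
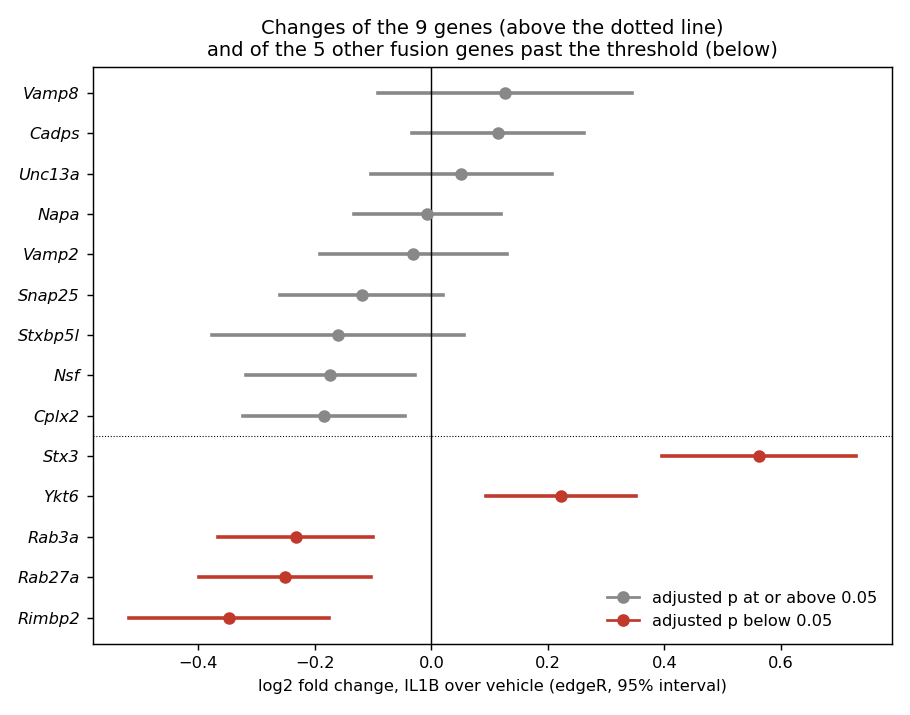
Log2 fold change of IL1B over vehicle with its 95% interval (edgeR quasi-likelihood fit) for the 9 genes, above the dotted line, and for the 5 other fusion genes past the threshold, below it; red marks an adjusted p below 0.05. The intervals of Cplx2 and Nsf leave out 0 but their adjusted p of 0.0896 and 0.133 do not pass, and Stx3, at 0.56, stands to the right of all 9.

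Promoter windows from RefSeq (GRCm38.p6, 250 bases before to 50 after a start site) were found for 7 of the 9 genes; Snap25 and Vamp2 had no entry. They were searched on both strands for the kappa-B consensus bound by NF-kB, the E-box CACGTG bound by clock factors and the cAMP response element TGACGTCA. Of 32851 windows of this length, 4.51% held the kappa-B consensus, 7.15% the E-box and 1.79% the cAMP response element. Among the 7 genes Cplx2, Nsf and Napa held a match. Their 250 bases upstream are shown because they put the motifs beside the pair of genes nearest the threshold and the gene whose fold change was closest to 0. Capitals mark the motifs, and each sequence is on its gene's strand, 5′ to 3′. Cplx2, chr13:54302306-54302555 (plus strand), holds 1 kappa-B match that starts 40 bases before the start site. The match is on the minus strand, so the consensus is read on the complement of the capitals. This RefSeq start lies far upstream of the GENCODE gene given above, which begins at 54371349. Nsf, chr11:103954057-103954306 (minus strand), holds 1 E-box 174 bases before the start. Napa, chr7:16098330-16098579 (plus strand), holds 3 E-boxes, at 185, 136 and 29 bases before the start, and 1 cAMP response element whose last base is the start site itself, so that its other bases end the printed stretch. The GENCODE start of Napa lies inside that stretch, so the E-box nearest the RefSeq start and the cAMP response element fall within the gene as given above.
Cplx2: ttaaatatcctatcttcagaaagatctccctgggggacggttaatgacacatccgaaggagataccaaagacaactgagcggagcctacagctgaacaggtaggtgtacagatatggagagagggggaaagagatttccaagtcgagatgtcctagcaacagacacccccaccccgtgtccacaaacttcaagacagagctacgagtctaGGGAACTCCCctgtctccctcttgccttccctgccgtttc
Nsf: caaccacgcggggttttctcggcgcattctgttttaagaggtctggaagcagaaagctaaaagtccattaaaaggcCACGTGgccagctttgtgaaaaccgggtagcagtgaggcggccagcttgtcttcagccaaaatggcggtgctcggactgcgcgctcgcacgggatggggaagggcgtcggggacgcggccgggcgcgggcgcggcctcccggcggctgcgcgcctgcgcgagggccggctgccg
Napa: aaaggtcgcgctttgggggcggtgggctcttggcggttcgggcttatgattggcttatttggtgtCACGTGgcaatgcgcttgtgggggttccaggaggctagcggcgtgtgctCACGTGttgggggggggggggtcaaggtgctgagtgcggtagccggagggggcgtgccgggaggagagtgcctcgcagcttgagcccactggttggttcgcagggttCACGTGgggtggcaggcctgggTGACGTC
A match is a run of letters in a window, and binding was not measured here. Vamp8, Stxbp5l, Unc13a and Cadps held none of the 3 motifs in their windows.

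Summed over the 9 genes, the level was 1158, 1080 and 1142 CPM in the IL1B libraries and 1181, 1149, 1146 and 1217 CPM in the vehicle libraries. The groups overlapped through IL1B library 1. Scaled to total counts alone, the sums were 1063 to 1140 per 1e6 with IL1B and 1146 to 1228 with vehicle and did not overlap. Under that scaling the log2 fold changes of the 12480 tested genes centred on -0.04 (median), beside -0.01 with TMM. The further fusion genes described below, summed the same way, did not overlap either (5002 to 5258 with IL1B and 5451 to 5538 with vehicle). Much of that sum came from the listed SNARE chaperone and palmitoylation genes (2697 to 2975 with IL1B and 2998 to 3133 with vehicle). The listed vesicle SNAREs, Vamp2 and Vamp8 included, leaned higher with IL1B and overlapped (714 to 743 against 689 to 723). So did the plasma membrane syntaxins (150 to 161 against 138 to 151). Whether the 9 genes or the further fusion genes separate more than other genes on this scale was not tested. Of the 9 genes, 4 had their lowest value in IL1B library 2, and the share over all tested genes was not counted.

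The second vehicle library stood at an end of the vehicle range for 7 of the 9 genes. With so few libraries any of them is often at an end, and the share over all tested genes was not counted. It was the highest for Vamp8, Snap25 and Napa, whose longest coding transcripts measure 2076, 2116 and 2517 nt. It was the lowest for Nsf, Stxbp5l, Cadps and Unc13a, at 3766, 4394, 5461 and 10255 nt, and between the others for Vamp2 and Cplx2. Its log2 difference from the mean of the other 3 vehicle libraries was 0.42 for Vamp8 and -0.30 for Unc13a. The part of transcript length in the single fold changes was not tested. With the length and GC trend removed from each library, Vamp8 had a log2 fold change of 0.07 and Unc13a of 0.03, and neither passed (edgeR adjusted p = 0.657 and 0.751).

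**Figure D3:**
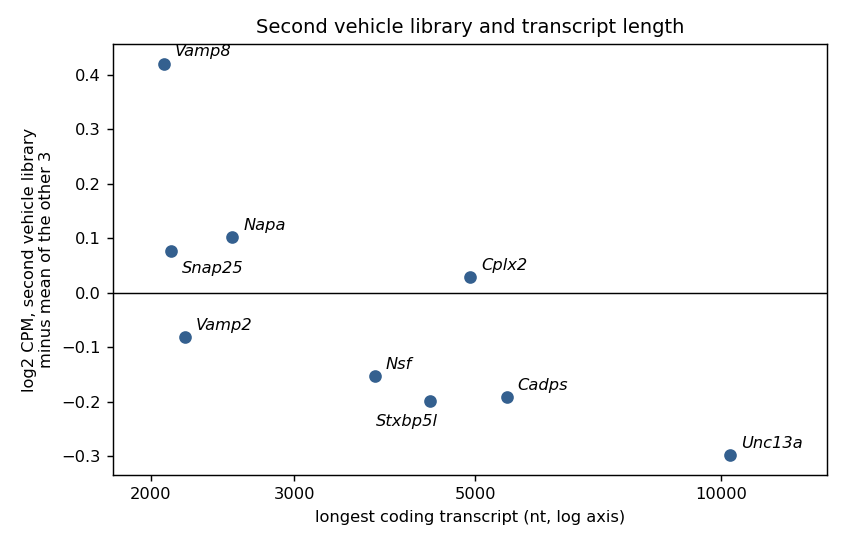
Log2 CPM in the second vehicle library minus the mean of the other 3 vehicle libraries, against the length of the longest coding transcript (nt, log axis), 1 point per gene. The values run from 0.42 for Vamp8, the shortest, to -0.30 for Unc13a, the longest, with Cplx2 (0.03) and Vamp2 (-0.08) off that slope.

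Levels differed between the genes far more than between the groups. Per kilobase of the longest coding transcript, Snap25 stood first, at 78.1 ± 6.87 with IL1B and 84.8 ± 3.86 with vehicle (CPM per kilobase, mean ± SD, n = 3 and 4). Napa followed at 77.0 ± 4.26 and 77.4 ± 2.79, then Vamp2 at 53.7 ± 5.69 and 55.0 ± 4.02 and Nsf at 43.1 ± 4.17 and 48.6 ± 2.59 (IL1B and then vehicle in each case). Cplx2 stood at 32.0 ± 0.754 with IL1B and 36.3 ± 2.91 with vehicle, Vamp8 at 21.9 ± 1.58 and 20.1 ± 3.17, and Cadps at 19.1 ± 0.196 and 17.7 ± 1.47. Unc13a stood at 15.1 ± 0.270 with IL1B and 14.6 ± 1.55 with vehicle, and Stxbp5l was last at 5.60 ± 0.569 and 6.27 ± 0.543. The order was the same in both groups. Over the 7 libraries the values of Snap25 and Napa, of Vamp2 and Nsf, and of Vamp8 and Cadps overlapped, and those of the other neighbours did not. The order depends on which transcript is expressed: with the median length of the coding transcripts, which is much shorter for Nsf and Unc13a, Nsf came first and Unc13a stood above Cplx2.

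**Figure D4:**
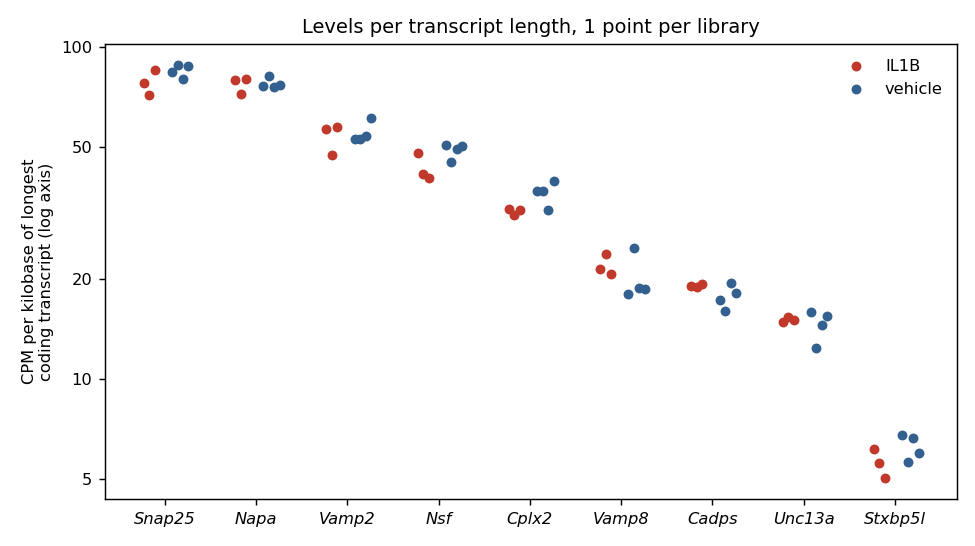
CPM per kilobase of the longest coding transcript (log axis) of the 9 genes in each library, IL1B in red to the left of vehicle in blue, ordered by the IL1B mean. Snap25 and Napa lie highest, near 78.1 and 77.0 with IL1B, and Stxbp5l lowest, at 5.60.

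Within their families, 5 of the genes were the leading paralog by the longest coding transcript, and 3 of these, Cplx2, Unc13a and Cadps, also by the median length. As a share of length-scaled counts, Cplx2 made up 86.4% ± 1.83 of the complexins with IL1B and 87.1% ± 0.917 with vehicle, with nearly all the rest from Cplx1. Unc13a made up 82.3% ± 0.791 of the Munc13 genes with IL1B and 81.3% ± 1.13 with vehicle. Cadps made up 71.7% ± 0.925 of Cadps and Cadps2 together with IL1B, and 70.2% ± 2.49 with vehicle. Napa, 1 of 3 genes for SNAP adaptors, took 71.2% ± 0.883 with IL1B and 70.2% ± 1.07 with vehicle. Snap25 took 56.5% ± 1.86 of its family of 4 with IL1B and 57.1% ± 1.62 with vehicle, followed by Snap47. By median length Snap47 led instead, at 48.2% with IL1B and 47.9% with vehicle, and Napg stood level with Napa, at 47.9% with IL1B and 49.0% with vehicle. The other 3 genes were minority members. Stxbp5l took 34.8% ± 2.40 of the tomosyn pair with IL1B and 37.1% ± 2.22 with vehicle, the rest being Stxbp5. Among 8 vesicle SNARE genes, Vamp2 took 17.6% ± 2.15 with IL1B and 19.0% ± 1.46 with vehicle, and Vamp8 7.19% ± 0.406 and 6.91% ± 0.885. Larger shares there belonged to Ykt6 and Vamp3, SNAREs of the Golgi and of recycling membranes, by the longest transcript; by median length Sec22b, a SNARE of the early secretory pathway, was largest (28.2% with IL1B and 28.3% with vehicle), and Vamp3 (14.8% and 16.3%) lay below Vamp2 (17.1% and 18.4%). All of these are means ± SD over n = 3 IL1B and n = 4 vehicle libraries, given with no test.

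The wider fusion machinery, a list of 57 further genes (other SNAREs, Munc13 paralogs, active zone and docking genes, SNARE chaperones and the like), had 56 in the table and 51 tested; no row matched Vamp7. Of these 51, 2 rose and 3 fell by edgeR, which is 9.8% called against 11.0% of all tested genes, with a median log2 fold change of -0.07. Stx3, a syntaxin of granules and the cell membrane, rose most, to 55.1 ± 2.64 CPM with IL1B against 37.4 ± 1.94 CPM with vehicle (log2 fold change 0.56, SE 0.08, edgeR adjusted p = 4.0e-05), and passed under all 16 alternative settings. Ykt6 rose to 259 CPM with IL1B, against 222 CPM with vehicle (log2 fold change 0.22, edgeR adjusted p = 0.0217). Ykt6 no longer passed when IL1B library 2 or 3 was left out (adjusted p = 0.125 and 0.0626), when vehicle library 1 or 4 was left out (0.0790 and 0.0826), or with total-count scaling (0.0504).

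The 3 genes that fell, Rimbp2, Rab3a and Rab27a, are among 16 tested genes of the active zone and docking list. That list was chosen with earlier results of these data known. Of all tested genes 3.25% fell. The count of 3 in the wider list was 1 without IL1B library 2 and 0 without IL1B library 3. Rimbp2, a scaffold that links calcium channels to release sites, fell to 101 CPM with IL1B, against 129 CPM with vehicle (log2 fold change -0.35, edgeR adjusted p = 0.00696), and did not pass when IL1B library 3 was left out (adjusted p = 0.0631). Rab3a, a GTPase of secretory granules, had 123 CPM with IL1B and 144 CPM with vehicle (log2 fold change -0.23, adjusted p = 0.0193). It no longer passed without IL1B library 2 (0.0824), IL1B library 3 (0.101) or vehicle library 4 (0.0809). Rab27a, its partner on granules, had 58.3 CPM with IL1B and 69.3 CPM with vehicle (log2 fold change -0.25, adjusted p = 0.0237). It did not pass when any 1 of the IL1B libraries or vehicle library 1 or 3 was left out (0.0558 to 0.0812), or with DESeq2 (0.0701).

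**Figure D5:**
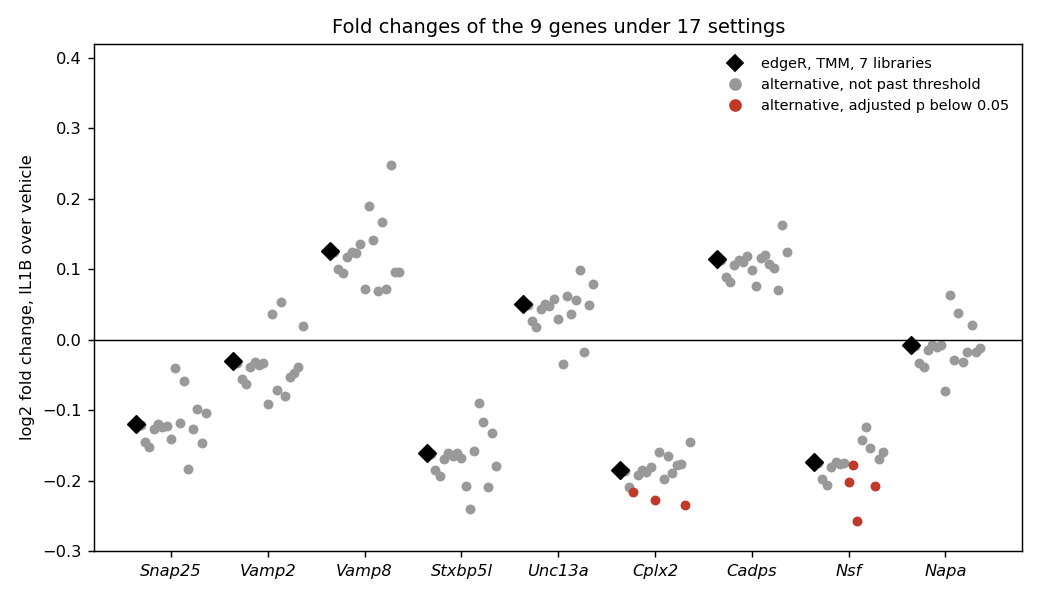
Log2 fold change of IL1B over vehicle for the 9 genes under 17 settings: the fit with edgeR, TMM scaling and all 7 libraries (black diamonds) and 16 alternatives (dots; red where the adjusted p is below 0.05). The red dots are 3 for Cplx2 and 4 for Nsf, all below 0, and the other 7 genes have none.

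By the pattern over the 7 libraries, the genes most like Cplx2 were Gnpda2, Jkamp, Nup214, Mettl17 and Hltf, whose log2 CPM profiles, each centred on its own mean, differed from that of Cplx2 by a root mean square of 0.03 to 0.04. Those most like Nsf were B3galt5, 2410127L17Rik, Elavl2, Cpne3 and Zyg11b, also at 0.03 to 0.04. Of these 10 genes, Zyg11b passed the threshold (log2 fold change -0.24, SE 0.07, edgeR adjusted p = 0.0364).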

How the data were processed

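RNA of Beta-TC6 cells was measured by sequencing of polyadenylated RNA, with NEBNext Ultra II libraries per the labels' protocols. The deposited values are raw counts, whole numbers for 23329 gene symbols in 7 columns, all used. The submitters' processing notes name the build mm10 and, for the whole study and with no role, R 4.1.0 and tools that include STAR, RSEM and HOMER. Alignment, read assignment and use of strand: not given in the sources used here.

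Vehicle columns match the sample titles. The IL1B columns are numbered 1, 2 and 3 and the titles 1, 3 and 4, so they were assigned to the group only, and libraries are numbered as in the table. Nothing in the labels says that replicates came from separate cultures; the p-values then cover only the spread among these samples, possibly technical.

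Counts were analysed with edgeR 4.0.16 in R 4.3.3: TMM scaling, filterByExpr (12480 genes kept), and a quasi-likelihood F test on all 7 libraries (IL1B against vehicle, no covariate). P-values were adjusted by Benjamini-Hochberg over all tested genes. Each SE was derived from the log2 fold change and its F value. Alternatives were other scalings, other filters, DESeq2 1.42.0, limma-voom (limma 3.58.1), each library left out, the second library of each group left out, and loess removal of each library's trend with length and GC content. Scripts were tested on simulated data. Lengths and positions are from GENCODE M21 (GRCm38, the assembly of mm10). A blastn 2.17.0 search of the longest transcript of each of the 9 genes against the sense strand of all annotated transcripts found no hit to another gene at 95% identity or more; overlap on the opposite strand was read from the annotation.

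The members and lists were chosen with earlier results of these data known. All 9 genes are described whatever their values; 1 gene of the wider list is not reported here. Genes of the wider list are named where they passed the threshold, and the genes nearest in pattern are the 5 with the smallest root mean square difference from each of the 2 members with the smallest adjusted p. Intervals and floors cover counting error only where they come from counts; fold-change intervals come from the fit.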

Additional observations from a re-analysis of the deposited data

Results flagged for a closer look

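Among 14 groups of 4 vehicle values (the 9 genes and the 5 other genes past the threshold), 3 held 1 library set apart by Dixon's 95% criterion. By chance about 1 group in 20 would, or 0.7 of 14, if the groups were independent and unselected. All 14 share the same 4 libraries, and 5 are of genes chosen for passing the threshold, so 0.7 is only a rough guide. Vamp8 stood at 51.52 CPM in the second vehicle library, against 37.5 to 39.0 CPM in the others. Napa stood at 205.3 CPM in the same library, against 190.2 to 193 CPM. Vamp2 stood at 134.4 CPM in the fourth vehicle library, against 116 to 119 CPM. The group of 3 IL1B libraries is too small for the test.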

How the results depend on the processing

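No gene of the 9 was called higher under any of the 16 alternatives. The count called lower, 0 with edgeR and TMM, was 1 with total-count scaling, 2 with the length and GC trend removed, 1 when both second libraries were left out, and 0 to 1 when single libraries were left out. Over all tested genes the calls, higher and lower together, were 1374 of 12480 with edgeR and TMM. They were 1400 of 12480 with total-count scaling and 1886 of 12480 with the trend removed. Without both second libraries they were 1847 of 12508. Without single libraries they ran from 1021 of 12619 to 1717 of 12405. In the wider list of 51 genes, 2 rose and 3 fell; 1 rose with total-count scaling, 5 fell with the length and GC trend removed and 6 when both second libraries were left out, and leaving out single libraries gave 1 to 2 higher and 0 to 5 lower. The higher count was 1 without IL1B library 2, IL1B library 3, vehicle library 1 or vehicle library 4; the lower count was 1 without IL1B library 2, 0 without IL1B library 3 and 5 without vehicle library 2. Fold changes near 0 turned sign: without the second library of each group the log2 values were 0.037 for Vamp2, -0.035 for Unc13a and 0.064 for Napa, and over the single libraries left out they ran from -0.079 to 0.054 for Vamp2, -0.017 to 0.099 for Unc13a and -0.032 to 0.038 for Napa. The other 6 genes kept their direction in all 16. The fit without the second library of each group was listed because earlier results had shown both to stand apart. The cause of these changes was not tested.

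With the median in place of the longest coding transcript, levels per kilobase with IL1B and with vehicle became 105.6 and 115 for Snap25, 71.4 and 73.1 for Vamp2, 31.5 and 28.8 for Vamp8, 6.94 and 7.77 for Stxbp5l, 48.3 and 46.6 for Unc13a, and 197 and 223 for Nsf; family shares became 43.6% and 44.1% for Snap25, 23.1% and 24.9% for Stxbp5l, 84.2% and 83.3% for Unc13a, 79.2% and 79.9% for Cplx2, 47.9% and 46.7% for Napa, and 70.0% with IL1B for Cadps. The other levels and shares moved by less than 1 SD.

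No paired analysis was possible because the table's IL1B columns carry the numbers 1, 2 and 3 and the titles 1, 3 and 4, so no column number can be tied to a vehicle number. Depth limits Stxbp5l most, with a counting error of 6.65% to 8.74% per library.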

Other observations

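Bsn and Pclo, large scaffold proteins of release sites, were looked at after their values were seen. Pclo averaged 102 ± 1.93 CPM with IL1B and 119 ± 19.3 CPM with vehicle (SD, n = 3 and 4; log2 fold change -0.23, edgeR adjusted p = 0.146), and passed downward without the second vehicle library (-0.34, adjusted p = 0.00045). Bsn averaged 14.0 ± 0.457 CPM with IL1B and 17.6 ± 3.69 CPM with vehicle (log2 fold change -0.33, edgeR adjusted p = 0.187), and also passed downward without that library (-0.46, adjusted p = 0.0180). Leaving that library out, 1717 of 12405 genes were called, against 1374 of 12480 with all libraries. With the length and GC trend removed, Pclo passed (-0.20, edgeR adjusted p = 0.0189) and Bsn did not. Pclo also passed with all libraries and no low-count filter (-0.24, edgeR adjusted p = 0.0125), and Bsn did not. Longer transcripts tended to lie low in the second vehicle library, and the part of transcript length in these values was not tested.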
